A study of Homo sapiens with 4 samples.

Results

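The 33 genes described here are the long noncoding host genes of small nucleolar RNAs (snoRNAs), which carry these small RNAs inside their own transcripts. They were chosen by symbol alone: 28 genes named SNHG (small nucleolar RNA host gene) with a number, and GAS5, ZFAS1, DANCR, CYTOR and TMEM107. They are 33 of 34542 genes paired with a symbol, and their 318 transcripts are part of a table of 65423. For each gene the transcript with the highest mean count of both cell lines stood for it and is called the leading transcript below.

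The study sequenced RNA of MDA-MB-231, a human breast cancer cell line taken as the parental line, and of MDA-MB-231-LM2 (LM2), its subline with strong metastasis to the lung, to find long noncoding RNAs that differ between them. Both lines were untreated and were grown with fetal bovine serum. Cultures of MDA-MB-231 stood in L-15 under air and those of LM2 in DMEM with CO2 added, and an effect of the medium or the gas cannot be told apart from one of the line. The labels list 2 samples of each line, but the deposited table has 1 column per line, which may be 1 library or both. There is therefore no spread between replicates, no p-value is given, and a difference described here is one between 2 columns.

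Pairs of counts below give MDA-MB-231 first and LM2 second. A ratio is the count in LM2 over the count in MDA-MB-231 after division by the column totals of 128985870 and 130689252 counts, given on the log2 scale, where 1 is 2-fold higher in LM2 and -1 is 2-fold lower. The interval beside it is the exact (Clopper-Pearson) 95% interval and covers counting error only. RPKM is the count divided by the transcript's length and by the column total, which allows levels to be compared between genes. Markers of this triple-negative line mostly went with its label. VIM had 153536 and 262027 counts in MDA-MB-231 and LM2, CD44 had 17246 and 14048, and ESR1 and PGR had at most 8. ERBB2, looked for as absent or low, had 2966 and 1922 counts (RPKM 4.91 and 3.22) and was thus not absent. PTPRC of leukocytes had 8 and 7, and ALB of hepatocytes and MYOD1 of muscle had at most 3. PECAM1, an endothelial marker, had 48 and 343 counts (RPKM 0.0825 and 0.597), and its part in the values below was not tested.

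The label of the gene group holds for most of its members but not for all. RefSeq lists 32 of the 33 genes as lncRNA, and TMEM107 codes for a membrane protein of the cilium. The spans of 31 genes hold at least 1 annotated snoRNA gene, 150 in all, of which 83 lie in SNHG14. No snoRNA gene was found inside CYTOR or SNHG27, so the name of a host does not apply to them in these annotations.

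As background, a snoRNA is usually cut out of an intron of its host after splicing, and the spliced host RNA is exported and often decays as it is read by ribosomes. Box C/D snoRNAs, named SNORD, guide the methylation of ribosomal RNA, box H/ACA snoRNAs, named SNORA, guide the change of uridine to pseudouridine, and scaRNAs do the same for the RNAs of the spliceosome in Cajal bodies. Many host genes start their transcripts with a run of pyrimidines, the 5′ terminal oligopyrimidine (TOP) element that they share with genes of ribosomal proteins.

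The snoRNA sequences below are examples, and others with many reads, such as SNORD22 and SNORA17B, are not shown. SNORA73A, SNORA24 and SCARNA16 lie in an exon of the leading transcript of SNHG3, SNHG8 and SNHG20. SNORD27 lies in one of SNHG1 and SNORD49B in one of SNHG29. SNORA26 and SNORD60 lie outside the exons of the leading transcripts of DANCR and SNHG19. The sequences are given 5′ to 3′ as in GENCODE release 29 (GRCh38), at chr1:28507366-28507571 (+), chr4:118279190-118279320 (+), chr17:77089307-77089493 (+), chr11:62855012-62855083 (-), chr17:16439505-16439576 (+), chr4:52713249-52713370 (+) and chr16:2155023-2155105 (-) in the order in which they are printed. Capitals mark the C box (TGATGA) and D box (CTGA) of SNORD genes, or the ACA box that stands 3 bases before the 3′ end of SNORA genes and scaRNAs of that kind.
SNORA73A: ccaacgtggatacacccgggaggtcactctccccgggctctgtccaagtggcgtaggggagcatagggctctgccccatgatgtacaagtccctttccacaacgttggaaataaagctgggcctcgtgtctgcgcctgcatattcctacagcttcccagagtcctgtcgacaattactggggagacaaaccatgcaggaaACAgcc
SNORA24: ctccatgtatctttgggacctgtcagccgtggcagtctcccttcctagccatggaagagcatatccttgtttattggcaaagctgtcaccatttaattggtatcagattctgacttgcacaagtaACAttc
SCARNA16: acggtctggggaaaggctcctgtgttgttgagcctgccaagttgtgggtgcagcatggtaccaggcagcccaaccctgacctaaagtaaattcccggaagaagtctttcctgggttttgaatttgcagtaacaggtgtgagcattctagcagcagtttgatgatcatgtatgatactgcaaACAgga
SNORD27: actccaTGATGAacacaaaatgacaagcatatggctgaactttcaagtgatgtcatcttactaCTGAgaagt
SNORD49B: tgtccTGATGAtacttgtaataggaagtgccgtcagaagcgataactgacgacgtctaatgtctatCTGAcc
SNORA26: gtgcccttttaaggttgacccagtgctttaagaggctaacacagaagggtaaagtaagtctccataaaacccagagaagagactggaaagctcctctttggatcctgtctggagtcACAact
SNORD60: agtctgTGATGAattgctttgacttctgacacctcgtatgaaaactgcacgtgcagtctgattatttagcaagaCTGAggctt

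Starts of 9 host genes are shown as examples of genes higher in LM2 (SNHG5, SNHG8, ZFAS1), nearly equal (SNHG19) and lower (SNHG32, CYTOR, SNHG30, SNHG11, SNHG18). They are too few to compare these groups, and counts over all windows follow. Each window has 30 bases on either side of the RefSeq start of the gene (GRCh38.p14, sense strand), and capitals mark the longest run of C and T within 10 bases of the start, which follows the first 30 bases. The windows lie at chr6:85678703-85678763 (-, SNHG5), chr4:118278732-118278792 (+, SNHG8), chr20:49278612-49278672 (+, ZFAS1), chr16:2155328-2155388 (-, SNHG19), chr6:31834886-31834946 (+, SNHG32), chr2:87455397-87455457 (+, CYTOR), chr17:35568084-35568144 (+, SNHG30), chr20:38446624-38446684 (+, SNHG11) and chr5:9546170-9546230 (+, SNHG18).
SNHG5: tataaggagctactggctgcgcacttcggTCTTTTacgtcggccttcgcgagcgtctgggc
SNHG8: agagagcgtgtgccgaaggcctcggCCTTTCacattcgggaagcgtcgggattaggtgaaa
ZFAS1: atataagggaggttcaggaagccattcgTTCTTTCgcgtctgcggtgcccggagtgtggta
SNHG19: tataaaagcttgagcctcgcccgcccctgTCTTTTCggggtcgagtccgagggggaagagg
SNHG32: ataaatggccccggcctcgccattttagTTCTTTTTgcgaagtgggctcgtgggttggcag
CYTOR: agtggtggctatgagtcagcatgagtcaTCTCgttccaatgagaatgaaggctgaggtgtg
SNHG30: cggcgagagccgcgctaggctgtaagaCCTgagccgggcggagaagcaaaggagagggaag
SNHG11: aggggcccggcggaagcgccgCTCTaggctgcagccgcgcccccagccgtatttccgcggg
SNHG18: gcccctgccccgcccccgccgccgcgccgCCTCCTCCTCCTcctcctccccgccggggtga

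Of the host genes with at least 50 counts on average, 27 have such a window, and 4 (SNHG6, SNHG9, SNHG15 and SNHG25) have none in the table used. A run of at least 5 pyrimidines stood within 10 bases of the start in 18 of 27 host genes, against 38.7% of all 35116 promoters and 85.2% of 61 ribosomal protein genes. The letters CTTT, searched on the sense strand of the same 10 bases on either side, are themselves pyrimidines and stood in 10 of the 27 (37.0%), against 9.52% of all promoters and 55.7% of the ribosomal protein genes. Of the 15 host genes above a log2 ratio of 0, 11 had the run and 7 the letters CTTT, and of the 12 below, 7 and 3. Among genes whose window is not shown, GAS5, SNHG10, SNHG21 and TMEM107 lay above 0 without the run. SNHG4, SNHG7, SNHG14, SNHG26 and SNHG33 lay below 0 with it. These are letters in a window and not mapped start sites of these cells, and the RefSeq start of GAS5 had no pyrimidine run over 3 bases.

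Most host genes lay within 1.5-fold between the cell lines, though a smaller share than of all named genes. The 2 beyond 2-fold were lower in LM2. At a mean of at least 50 counts, 31 of 33 host genes could be compared. Of these, 2 were over 2-fold lower in LM2, SNHG18 and SNHG11, where 6.89% of 15436 named genes were, and 0 were over 2-fold higher, where 4.58% of named genes were. At 1.5-fold, 6 were lower (15.5% of named genes) and 5 higher (10.7%). The other 20 (64.5%) lay within 1.5-fold, against 73.9% of named genes and 67.8% of lncRNA genes. Among lncRNA genes, 10.3% were over 2-fold lower and 5.65% higher, and 20.2% and 12.1% passed 1.5-fold. The median log2 ratio of the 31 was 0.10, against -0.004 for all named genes and -0.08 for 1151 lncRNA genes. The interval lay above 0 for 15 host genes, below 0 for 10 and held 0 for 6, where among the 15436 named genes it lay above 0 for 5718, below 0 for 5917 and held 0 for 3801. A count of 2 of 31 is close to the share of all named genes that were lower. The 2 genes left out had few counts: SNHG27 had 3 and 8, and SNHG31 had 11 and 10.

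**Figure D1:**
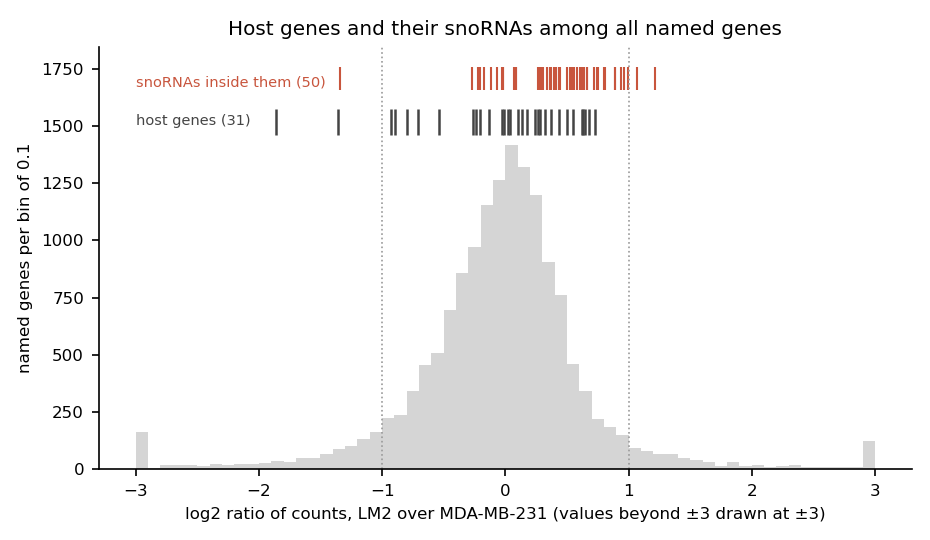
Number of named genes with at least 50 counts on average per bin of the log2 ratio of LM2 over MDA-MB-231 (grey), with 1 black tick for each of the 31 host genes and 1 red tick for each of the 50 snoRNAs inside them. Dotted lines mark 2-fold: black ticks lie beyond the lower line for 2 genes and beyond the upper line for 0.

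Levels spanned more than the differences did. The leading transcript of SNHG3 had the highest RPKM, 512 in MDA-MB-231 and 788 in LM2, followed in MDA-MB-231 by SNHG8 (152 and 235), SNHG25 (115 and 118), SNHG7 (112 and 111), SNHG29 (85.1 and 141) and SNHG1 (81.6 and 115). These 6 leading transcripts all hold a snoRNA in an exon. At the other end of the 31 compared, SNHG32 had an RPKM of 0.273 and 0.157, set by a listed length of 4208 bases that is several times that of its gene model, SNHG22 of 0.706 and 0.485 and SNHG11 of 0.871 and 0.339. How many counts of SNHG32 fall within the shorter model was not determined, so its place as the lowest is uncertain. The plot of levels gives all 33 genes, and the order of neighbours in it rests on 1 column per line.

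**Figure D2:**
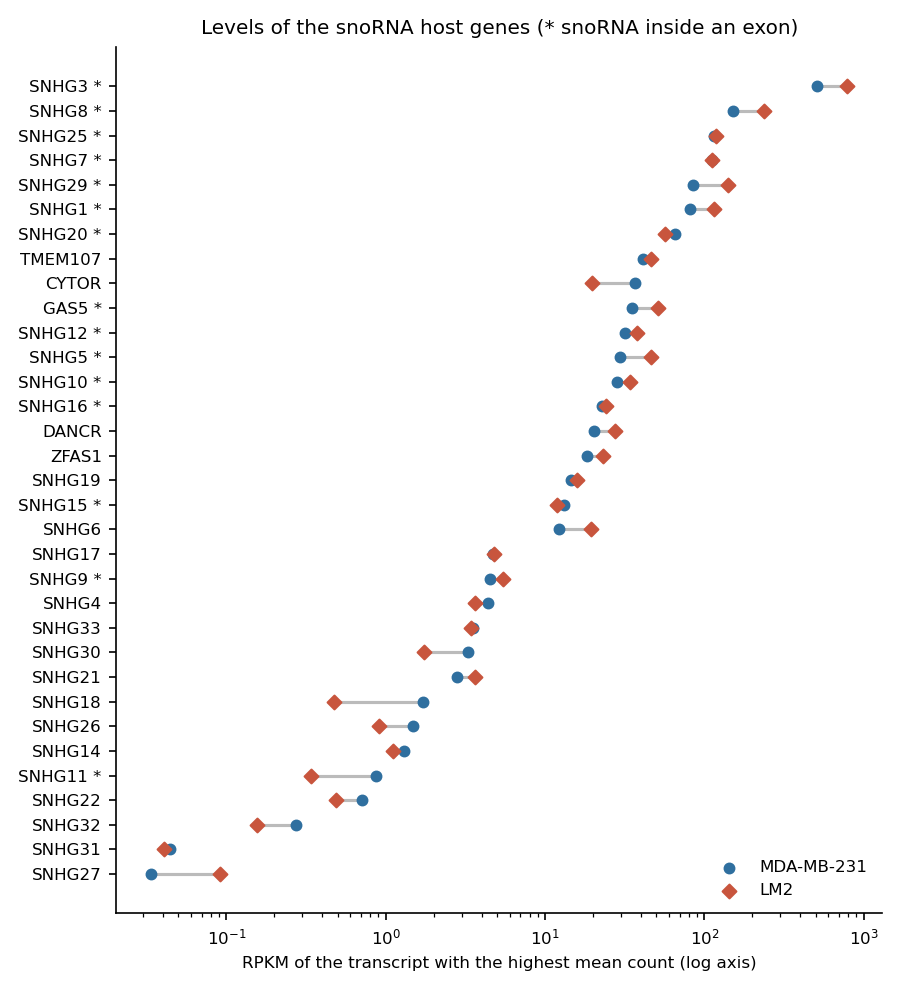
RPKM of the leading transcript of each of the 33 host genes in MDA-MB-231 (blue circles) and LM2 (red diamonds), on a log axis. Stars mark the 15 genes whose leading transcript holds a snoRNA in an exon, and SNHG3 stands highest at 512 and 788.

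The leading transcript of 15 host genes holds at least 1 snoRNA inside an exon, so its count contains the reads of the snoRNA. This number is a minimum, since the gene models of TMEM107, SNHG32 and SNHG33 were shorter than the listed transcript and SNHG4 had no model. It also counts only snoRNAs that lie wholly in an exon. The leading transcript of SNHG22 overlaps SCARNA17 in part, and its count may hold reads of that scaRNA. In 10 of the 15, the exonic snoRNAs listed as genes of their own had over 50% of the counts of the host transcript in MDA-MB-231. SNHG20 is the clearest case: its leading transcript had 8791 and 7511 counts in MDA-MB-231 and LM2, and SCARNA16, the scaRNA inside its exon, had 8535 and 7291, which is 97.1% in both lines. For SNHG3, SNORA73A had 169743 of 174965 counts in MDA-MB-231 and 257775 of 265619 in LM2, or 97.0% in both. SNORA73A, also called U17, takes part in the cutting of the precursor of ribosomal RNA rather than in a base change. It has a close copy, SNORA73B, in the same host, which has no transcript of its own in the table, so reads of the pair cannot be assigned to 1 of them. SNHG10 (92.2% and 91.0%, SCARNA13), SNHG7 (90.6% and 90.1%, mostly SNORA17B), SNHG8 (88.0% and 87.6%, SNORA24) and SNHG25 (85.3% and 81.5%, SNORA50C) had shares nearly as high. The lowest of the 15 were SNHG29 (7.63% and 5.95%), SNHG5 (3.72% and 2.92%) and SNHG16 (0.844% and 1.05%).

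**Figure D3:**
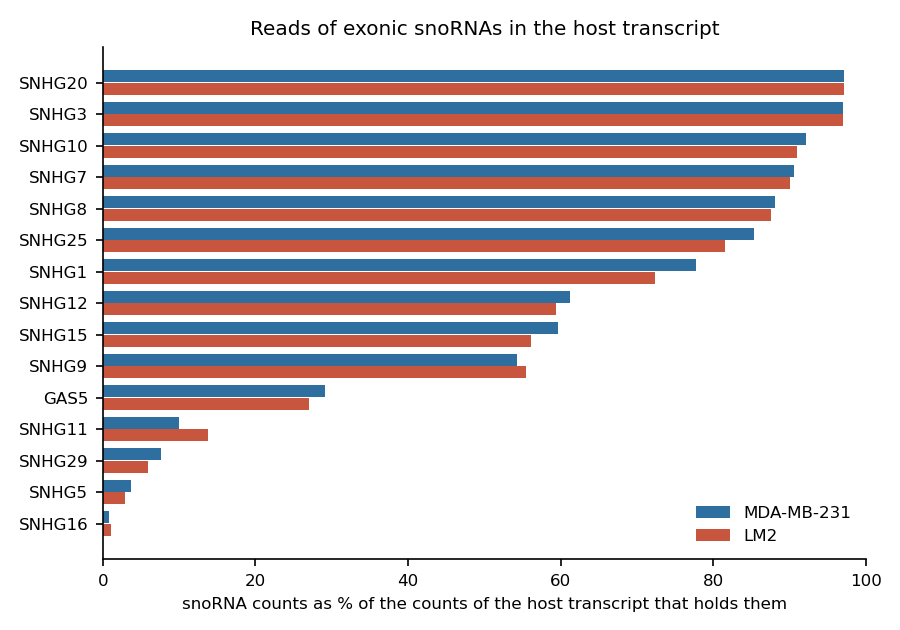
Counts of the snoRNAs that lie in an exon, as a percentage of the counts of the leading host transcript that holds them, for 15 host genes in MDA-MB-231 (blue) and LM2 (red). The share reached 97.1% for SNHG20 and was 0.844% for SNHG16 in MDA-MB-231, and both lines had like shares for most genes.

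For 27 host genes the table also lists a transcript with no snoRNA base in its exons, and in 25 of them it had at least 50 counts on average. This choice of transcript was made after the data were seen. In 8 of the 25 it was the leading transcript itself. Over the same 25 genes the median log2 ratio was 0.24 by the leading transcript and 0.31 by the transcript without snoRNA, with 2 genes over 2-fold lower and 0 over 2-fold higher by the latter. Where the 2 transcripts differed, the ratio moved by less than 0.1 in 10 of 17 genes and by at most 0.56, in SNHG26. For SNHG26 and SNHG33 the leading transcript had no snoRNA in the exons of its model, but the model's length differed from the listed one, so their shifts are not those of leaving out a snoRNA. Among the other 15, the ratio moved most in SNHG25, from 0.04 to 0.31. For SNHG1, the leading transcript had 29524 and 41181 counts (0.50, interval 0.48 to 0.52), and the spliced transcript ENST00000539921.1 had 4100 and 6646 (0.72, interval 0.66 to 0.77). The lower ratio went with SNORD22, which had 21758 and 27607 counts (0.36) and made up 73.7% of the leading transcript in MDA-MB-231 and 67.0% in LM2.

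**Figure D4:**
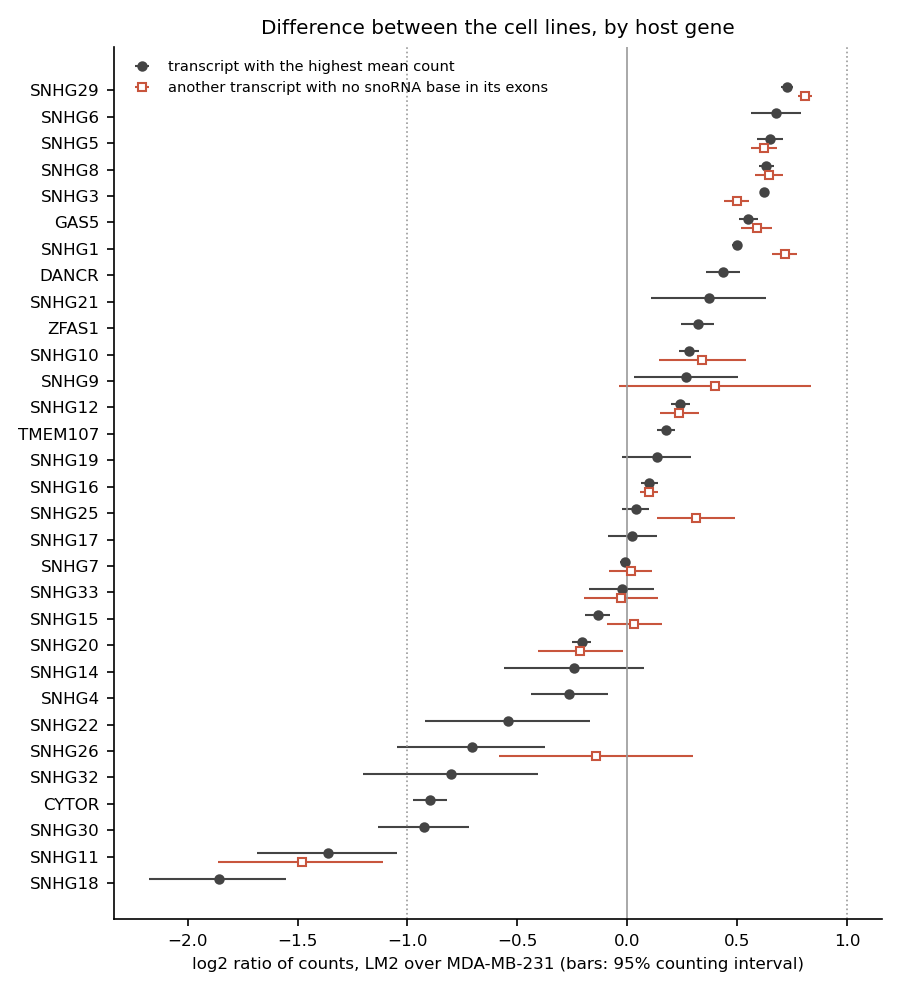
Log2 ratio of LM2 over MDA-MB-231 for the 31 host genes, by leading transcript (black circles) and by the most counted transcript with no snoRNA base in its exons where that is another one (open red squares), with 95% counting intervals. SNHG18 and SNHG11 lie beyond the dotted line of 2-fold lower, and SNHG29 is highest at 0.73 by its leading transcript.

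The 7 host genes furthest above 0 were between 1.41-fold (SNHG1) and 1.65-fold (SNHG29) higher in LM2. Among them, SNHG3, SNHG8, SNHG29 and SNHG1 are also 4 of the 6 with the highest RPKM, which includes reads of snoRNAs. By transcripts without snoRNA, their RPKM in MDA-MB-231 was 14.7, 37.9, 76.0 and 29.3. SNHG29, host of SNORD49A, SNORD49B and SNORD65, had 18485 and 30162 counts in the parental line and LM2 (0.73, interval 0.70 to 0.75), and its transcript without snoRNA had 12481 and 21584 (0.81, interval 0.78 to 0.84). All 62 listed transcripts of SNHG29 passed the count minimum and had ratios from 0.64 to 0.85. SNHG6, host of SNORD87, had 1019 and 1609 (0.68, interval 0.56 to 0.79). SNHG5, host of the SNORD50 pair, had 3849 and 5956 (0.65, interval 0.59 to 0.71). Every one of these 3 genes was higher in LM2 by each of its transcripts that could be compared.

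SNHG8 had 11318 and 17307 counts (0.63, interval 0.60 to 0.67), and its transcript without SNORA24 had 3326 and 5129 (0.64, interval 0.58 to 0.71). SNHG3 had 0.62 by the transcript that holds SNORA73A (interval 0.61 to 0.63) and 0.50 by the spliced NR_002909, with 4300 and 5992 counts (interval 0.44 to 0.55). GAS5 (growth arrest specific 5), host of a row of box C/D snoRNAs and known as a decoy of the glucocorticoid receptor, had 7760 and 11217 counts (0.55, interval 0.51 to 0.59). Its transcript without snoRNA had 2696 and 4000 (0.59, interval 0.52 to 0.66), and its 30 transcripts ran from 0.37 to 0.63. DANCR, known for holding back differentiation, had 2320 and 3098 (0.44, interval 0.36 to 0.51). ZFAS1, which runs opposite the ZNFX1 gene, had 2592 and 3194 (0.32, interval 0.25 to 0.40).

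A second set of host genes lay closer to 0. SNHG21 had 218 and 278 counts (0.37, interval 0.11 to 0.63). SNHG10 had 7241 and 8685 (0.28), and without SCARNA13 379 and 474 (0.34, interval 0.14 to 0.54). SNHG9 had 278 and 330 (0.27, interval 0.03 to 0.50), and by its transcript without snoRNA the interval held 0. SNHG12, host of 4 snoRNAs, had 7896 and 9213 (0.24, interval 0.20 to 0.29). TMEM107, the protein-coding gene that holds SNORD118 (U8, a snoRNA of ribosomal RNA processing), had 9567 and 10661 (0.18, interval 0.14 to 0.22). SNORD118 has no transcript of its own in the table, so its share of the TMEM107 count was not determined. The largest of these differences, in SNHG21, was 1.29-fold.

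In 6 host genes the counting interval held 0. These were SNHG19 with 650 and 704 counts (0.13, interval -0.02 to 0.29), SNHG25 with 4164 and 4222 (0.04, interval -0.02 to 0.10) and SNHG17 with 1315 and 1318 (0.02, interval -0.09 to 0.13). SNHG7 had 31551 and 30962 (-0.01, interval -0.03 to 0.01), SNHG33 had 747 and 724 (-0.03, interval -0.18 to 0.12) and SNHG14 had 182 and 152 (-0.24, interval -0.56 to 0.08). SNHG16 with 10666 and 11289 counts (0.10, interval 0.06 to 0.14), SNHG15 with 5328 and 4790 (-0.13, interval -0.19 to -0.08) and SNHG20 (-0.21, interval -0.25 to -0.16) had intervals that left out 0 but differed by at most 1.16-fold. The sign of SNHG15 and SNHG16 depended on the transcript: SNHG15 was 0.03 by its transcript without SNORA9, and SNHG16 was -0.01 by its transcript with the highest RPKM. SNHG25 was 0.31 (interval 0.13 to 0.49) by ENST00000580828.1, the transcript without SNORA50C, with 470 and 576 counts.

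SNHG14 is the long host of the Prader-Willi region, whose snoRNAs are best known from brain. Of the 83 snoRNA genes in its span, 82 are listed and 0 reached 50 counts, and the highest mean count among them was 0.5. Only 1 of its 23 listed transcripts passed the count minimum.

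The host genes furthest below 0 had few counts, CYTOR apart. SNHG18, host of SNORD123, had 404 and 110 counts, or 3.62-fold lower (log2 ratio -1.86, interval -2.18 to -1.55). All 3 of its transcripts lay between -1.88 and -1.84, and SNORD123 itself had 8 and 3 counts. SNHG11, host of SNORA60 and SNORA71E, had 302 and 116 counts, or 2.57-fold lower (-1.36, interval -1.68 to -1.05), and its 16 transcripts ran from -1.61 to -1.09. Its transcript without snoRNA had 232 and 82 counts (-1.48, interval -1.86 to -1.11). Just outside 2-fold were SNHG30, host of SNORD7, with 560 and 291 counts (-0.93, interval -1.13 to -0.72), CYTOR with 3879 and 2058 (-0.90, interval -0.97 to -0.82) and SNHG32 with 150 and 85 (-0.80, interval -1.20 to -0.41). The intervals of SNHG30 and SNHG32 reach past 2-fold.

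CYTOR, a cytoskeleton regulator RNA, had the most counts of the 6 host genes over 1.5-fold lower: its RPKM of 36.8 in MDA-MB-231 was higher than that of 94.6% of named genes with at least 50 counts on average. It has a near-identical copy, MIR4435-2HG, which was looked up after the value of CYTOR was seen and had 1453 and 778 counts (-0.88, interval -1.01 to -0.76), so the counts could be split between the copies. The 14 transcripts of CYTOR with at least 50 counts on average ran from -0.996 to -0.325, and the one with the highest ratio, ENST00000414030.1, had 321 and 253 counts. SNHG26, host of SNORD93, had 197 and 119 (-0.71, interval -1.05 to -0.37), but another of its transcripts, ENST00000432668.1, had 94 and 84 (-0.14, interval -0.59 to 0.30). SNHG22 had 149 and 101 (-0.54, interval -0.92 to -0.17). SNHG4, host of SNORA74A, had 597 and 491 (-0.26, interval -0.44 to -0.09).

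Transcripts of 1 host gene mostly went the same way. Of 318 listed transcripts, 289 had at least 50 counts on average, and 26 host genes had more than 1 of these. In 21 of the 26 all such transcripts had the same sign. A departure of over 0.2 (log2) from the leading transcript was seen in 41 transcripts of 9 genes, and overlapping transcripts share reads, so these are not independent. SNHG1 gave 23 of them, all above its leading transcript, from 0.70 to 0.86. SNHG11 gave 7, of which ENST00000440918.1 (71 and 33 counts) was at -1.09 and the other 6 between -1.61 and -1.57. In SNHG17, ENST00000456953.1 had 243 and 305 counts (0.35, interval 0.10 to 0.60), ENST00000413755.1 had 270 and 331 (0.31) and ENST00000424235.1 had 313 and 373 (0.27), against 0.02 for the leading transcript. In SNHG21, ENST00000558687.1 had 151 and 229 (0.62, interval 0.32 to 0.93), against 0.37. In SNHG15, ENST00000438705.3 had 572 and 617 (0.13) and ENST00000580458.1 had 814 and 860 (0.10), both with intervals that held 0, against -0.13. In SNHG20 the transcripts ran from -0.80 (ENST00000568363.1, 184 and 104 counts) to 0.03 (ENST00000565256.1, 254 and 256).

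Inside the host genes, 30 of 31 box C/D snoRNAs and 9 of 16 box H/ACA snoRNAs that reached the count minimum were above 0, a difference that was not tested. Outside SNHG14, 60 of 67 snoRNA genes are listed and 50 had at least 50 counts on average, 40 of them above 0 (80%, against 70.2% of all snoRNA and scaRNA genes and 67.3% of the 165 outside the hosts). Of the 50, 1 was over 2-fold lower (1.4% of 215 snoRNA and scaRNA genes in the table) and 2 over 2-fold higher (2.33%). Their median log2 ratio was 0.42, against 0.22 for all snoRNA and scaRNA genes and 0.16 for the 165 outside these hosts. Of 31 box C/D snoRNAs, 30 lay above 0, with a median of 0.60, and 28 had an interval above 0. Outside the hosts, 51 of 71 box C/D snoRNAs lay above 0, with a median of 0.22. The 31 come from few primary transcripts, 18 of them from GAS5 and SNHG1, and the other 13 had a median of 0.41. In MDA-MB-231 the snoRNAs of GAS5 ran from an RPKM of 3.95 (SNORD75) to 174 (SNORD76), beside 42.7 for its transcript without snoRNA. Those of SNHG1 ran from 11.8 (SNORD31) to 1321 (SNORD22), beside 29.3. Box H/ACA snoRNAs ran from 9.10 (SNORA78) to 6305 (SNORA73A). How much of these counts is unspliced host RNA was not tested. Of 16 box H/ACA snoRNAs, 4 are SNORA71 copies of SNHG17. Of the 16, 9 lay above 0 and the median was 0.08, against 52 of 74 above 0 and a median of 0.20 outside the hosts. Outside the hosts the share above 0 was thus 71.8% for box C/D and 70.3% for box H/ACA.

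GAS5 carries 10 snoRNAs that could be placed beside it. The most counted were SNORD76, with 1838 and 2388 counts (0.40, interval 0.31 to 0.49), SNORD44 with 337 and 450 (0.44), SNORD79 with 232 and 424 (0.89, interval 0.65 to 1.13) and SNORD74 with 251 and 409 (0.72). Chosen after their values were seen, SNORD75 had 31 and 71 counts (1.21, interval 0.59 to 1.87), and SNORD77, with 99 and 93 (-0.07, interval -0.50 to 0.35), was the one box C/D snoRNA below 0 among the 31 with at least 50 counts on average. The 10 had a median of 0.69, beside 0.59 for the GAS5 transcript without snoRNA.

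SNHG1 carries 8. After SNORD22, the most counted were SNORD27, which guides a methylation of the small-subunit ribosomal RNA, with 386 and 664 counts (0.80, interval 0.62 to 0.99), SNORD29 with 381 and 634 (0.75, interval 0.57 to 0.94) and SNORD28 with 283 and 417 (0.58). SNORD26, chosen after its value was seen as the other snoRNA over 2-fold higher, had 218 and 452 (1.07, interval 0.83 to 1.31). The 7 snoRNAs of SNHG1 other than SNORD22 had ratios from 0.55 to 1.07, above that of SNORD22, whose counts were far higher.

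Single snoRNAs of the remaining hosts ran from close to their host to apart from it. SNORA24 of SNHG8 had 9965 and 15164 counts (0.62) beside 0.64 for the host, and SNORA26 of DANCR had 2012 and 2861 (0.53) beside 0.44. SNORD12, SNORD12B and SNORD12C of ZFAS1 had 0.34, 0.54 and 0.94 (424 and 529, 106 and 152, 64 and 121 counts) beside 0.32. SNORD87 of SNHG6 had 161 and 295 (0.89). Further from its host was SNORD60 of SNHG19, with 934 and 1438 counts (0.64, interval 0.52 to 0.76) beside 0.13 for a short host transcript of 342 bases. On the other side, SNORD49A and SNORD49B of SNHG29 had 542 and 691 (0.37) and 869 and 1105 (0.37) beside 0.81, while SNORD65 had 563 and 879 (0.66). SNORD50A and SNORD50B of SNHG5 had 56 and 68 (0.30) and 87 and 106 (0.30), SNORD104 of SNHG25 had 394 and 517 (0.41) and SNORD1C of SNHG16 had 90 and 118 (0.41). The intervals of the SNORD50 pair held 0.

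Among the H/ACA snoRNAs, the SNORA71 copies of SNHG17 had 32642 and 34160 (SNORA71A, 0.08), 6993 and 6793 (SNORA71C, -0.02), 6954 and 6076 (SNORA71D, -0.18) and 1671 and 1518 counts (SNORA71B, -0.12). They are alike in sequence, so counts of single copies are uncertain. SNORA17B and SNORA17A of SNHG7 had 27995 and 27284 (-0.02) and 592 and 615 (0.07). SNHG12 carries SNORA16A (3442 and 3603, 0.08), SNORA61 (1394 and 1868, 0.44), SNORA44 (1168 and 1634, 0.50) and SNORD99 (303 and 364, 0.28). SNORA74A of SNHG4 had 13329 and 10904 (-0.27), SNORA9 of SNHG15 had 3181 and 2687 (-0.22), SNORA50C of SNHG25 had 3553 and 3441 (-0.03) and SNORA78 of SNHG9 had 151 and 183 (0.30).

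Among carried RNAs that reached the count minimum, SCARNA17, a scaRNA inside SNHG22, was the only one over 2-fold lower in LM2. It had 1053 and 409 counts (-1.35, interval -1.51 to -1.18). Its host SNHG22 had 149 and 101, by a transcript that overlaps part of SCARNA17. SCARNA13 of SNHG10 had 6673 and 7899 (0.26). SNORA60 and SNORA71E of SNHG11 were under the count minimum, with 68 and 20 and 30 and 16 counts, and both were lower in LM2 like their host.

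Over 19 host genes and 48 snoRNAs, the ratio of the host transcript without snoRNA and the median ratio of its snoRNAs had the same sign in 17 hosts and lay within 0.25 of each other in 14. Most of both kinds lay above 0 (19 of 25 transcripts without snoRNA and 40 of 50 snoRNAs), so many would share a sign in any case. The median size of the difference was 0.12 and the largest among these 19 hosts 0.51, in SNHG19. SNHG22 (-0.54, with SCARNA17 at -1.35) and SNHG4 (-0.26, with SNORA74A at -0.27) were left out. The only listed transcript of SNHG22 overlaps SCARNA17 in part, and SNHG4 had no transcript known to be without snoRNA. Across the 19 hosts Pearson's r was 0.73 and Spearman's rho 0.69, given as a description: all points share the same 2 columns and their totals, and the counts do not tell a snoRNA from its unspliced host.

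**Figure D5:**
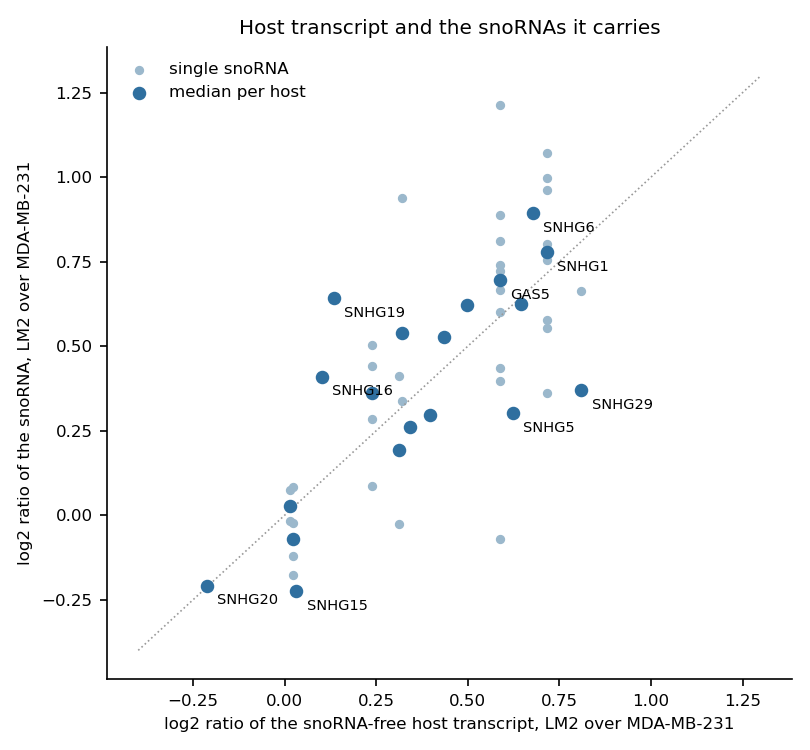
Log2 ratio of LM2 over MDA-MB-231 of 48 snoRNAs (pale points) and their median per host (dark points) against that of the host transcript with no snoRNA base, for 19 host genes, with a dotted line where both are equal. SNHG19 lies 0.51 above the line and SNHG29 0.44 below it.

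Genes that work on snoRNAs or on host RNAs showed no difference over 2-fold. For scale, a fall past 2-fold in LM2 was seen in 6.89% of the 15436 named genes, and a rise past it in 4.58%. Lists of 8 to 17 genes would each hold few such genes in any case. Of 8 core proteins of snoRNA particles, 0 were over 2-fold lower or higher and the median log2 ratio was 0.16. DKC1, the pseudouridine synthase, had 4770 and 6481 counts (0.46) and NOP10 2677 and 3575 (0.44), while FBL, the methyltransferase, had 3541 and 3561 (0.03) and NOP56 10099 and 9834 (-0.02). Of 15 assembly factors, 0 passed 2-fold, all 15 lay above 0 (49.6% of named genes did), 4 with an interval that held 0, and the median was 0.20. RPAP3, a cofactor of HSP90, had 1264 and 2156 (0.79) and COIL, the coilin of Cajal bodies, 1492 and 2008 (0.45), and at the low end ZNHIT6 had 2815 and 2925 (0.07) and NOPCHAP1 439 and 440 (0.02).

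Factors of nonsense-mediated decay, which removes many spliced host RNAs, had a median of 0.07 over 17 genes, none past 2-fold. UPF3B had 864 and 1148 counts (0.43) and UPF2 2084 and 2716 (0.40), against 3614 and 2777 for NBAS (-0.36) and 1989 and 1629 for XRN1, a 5′ exonuclease (-0.27). Regulators of TOP mRNAs had a median of 0.18 over 12 genes, again none past 2-fold. EIF4EBP1, an inhibitor of cap-dependent translation, had 2365 and 3618 (0.63) and RPTOR, a subunit of mTOR complex 1, 2908 and 3781 (0.40), while TIA1 had 2028 and 1675 (-0.26) and PDCD4 1621 and 1431 (-0.16). The 219 protein-coding hosts of snoRNAs that could be compared had a median of 0.14, with 6 over 2-fold lower (6.76% of all protein-coding genes were) and 6 higher (4.62%). At their ends stood MVB12B with 380 and 28 counts (-3.74), IL1RAPL1 with 1288 and 348 (-1.87), PLCB1 with 74 and 800 (3.45) and HTR2C with 0 and 116.

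The strands are not known to be separated in the counts, and exons of a protein-coding gene on the other strand lie over 7 leading transcripts. The overlap was 36.2% of the leading transcript of SNHG6 (MCMDC2, 273 and 485 counts, 0.85), 25.2% of SNHG29 (LRRC75A, 1029 and 1126, 0.15), 23.2% of ZFAS1 (ZNFX1, 8021 and 6384, -0.31), 17.5% of SNHG14 (UBE3A, 5417 and 5191, -0.04) and 14.2% of SNHG22 (MYO5B, 272 and 313, 0.22). It was 45.4% of SNHG16 (a gene known as ENSG00000284526, not listed in the table) and 0.368% of SNHG12 (TRNAU1AP, 1212 and 1304, 0.12). For ZFAS1 and SNHG14 the neighbour had a high level, with an RPKM of 8.33 for ZNFX1 beside 18.5 for ZFAS1 and of 7.86 for UBE3A beside 1.31 for SNHG14 in MDA-MB-231. Reads of the pair cannot be told apart there. On the same strand, SEC14L1 (6071 and 3754, -0.67) covers 34.3% of the leading transcript of SNHG20, and RCC1 (5643 and 7271, 0.38) covers 4.17% of that of SNHG3.

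Neighbouring genes were set beside each host gene to show how it stood within its chromosome region. Of the 30 nearest protein-coding genes with at least 50 counts, 15 on each side, SNHG18 was lower than 29 (their median -0.07), SNHG30 lower than 28 (-0.10), SNHG11 lower than 26 (-0.45) and CYTOR lower than 25 (-0.35). Among the higher host genes, ZFAS1 was above 29 of 30 (median -0.26), SNHG6 was above 28 of 30 (median 0.17), and SNHG5 (0.30), SNHG29 (0.14), SNHG3 (0.08) and SNHG1 (0.17) were above 27 each. SNHG8 was above 20 (median 0.35), and SNHG21, at 0.37, was above only 8 (median 0.68). An extreme ratio ranks near the end of most sets of genes. Of all named genes with at least 50 counts on average, 2.36% lay below SNHG18, 7.86% below SNHG30, 3.9% below SNHG11 and 8.42% below CYTOR. This share was 77.1% for ZFAS1, 91.5% for SNHG6, 90.9% for SNHG5 and 92.3% for SNHG29. For SNHG3 it was 90.2%, for SNHG1 86.6%, for SNHG8 90.5% and for SNHG21 80.1%. SNHG32, SNHG22 and SNHG15 stood among neighbours with low ratios, with medians of -0.69, -0.67 and -0.60, and SNHG22 lay above 17 of its 30. SNHG17 and SNHG11 share the same 30 neighbours on chromosome 20, and SNHG17, at 0.02, was above 27 of them while SNHG11 was above 4.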

How the data were processed

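Total RNA of untreated MDA-MB-231 and LM2 cells was sequenced. Per the labels, reads were converted with bcl2fastq and aligned with TopHat2 2.0.13 to hg19 (GRCh37). The program that counted reads, the strand it used and its gene models have no name or setting given in the sources used here. A count and an RPKM per transcript were deposited by the authors in 1 column per cell line, whose totals were 130689252 and 128985870 counts. RPKM equalled the count divided by length and column total.

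Here transcripts were paired with symbols through RefSeq and Ensembl tables, and the transcript with most counts stood for a gene. Where the mean reached 50 counts, genes were compared by the ratio of counts over column totals, with exact (Clopper-Pearson) 95% intervals (Python 3.11.15, scipy 1.17.1), which cover counting error only. Over 2-fold was the call. edgeR 4.0.16 and DESeq2 1.42.0 (R 4.3.3) gave alternative scalings and no test. Scripts were tested on simulated data. SnoRNAs were placed in host exons with GENCODE release 29. Transcripts without snoRNA have no snoRNA base in their exons and a model within 60 bases of the listed length. The text names every host gene, up to 4 of its snoRNAs by mean count, transcripts departing by over 0.2 (by range for SNHG1 and most of SNHG11), and the 2 largest and smallest ratios of each list. Members and lists were chosen with earlier results of these data known.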

Additional observations from a re-analysis of the deposited data

How the results depend on the processing

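No paired analysis was possible because the tables hold 1 column per cell line, without replicate numbers, and for the same reason leaving out each replicate was not run. With 1 column per line, no spread between cultures is known, and at low counts the intervals are wide (SNHG32, -1.20 to -0.41). Of the 31 host genes, 2 were over 2-fold lower or higher. The number was also 2 under the count-based alternatives with that fold and a count minimum, which held 24 to 31 genes. With no count minimum it was 3 of 33, the third being SNHG27 with 3 and 8 counts. At 1.5-fold it was 11 of 31 (6 lower, 5 higher). With log2(RPKM + 1) it was 0 of 31, where the low RPKM of SNHG11 and SNHG18 shrinks their ratios. The median log2 ratio of 0.10 became 0.21 with only NR_ and NM_ transcripts (24 genes) and 0.31 with transcripts without snoRNA (25 genes), an alternative added after seeing the data, and lay between 0.03 and 0.18 under the others. Of the snoRNAs inside the hosts, 3 of 50 were beyond 2-fold, 4 of 50 with TMM and 10 of 142 with no count minimum (4 lower, 6 higher). Their median log2 ratio of 0.42 became 0.019 with no count minimum. That setting takes in 82 snoRNAs of SNHG14 with a mean count of at most 0.5. Over the gene lists, 12 of 268 genes were beyond 2-fold and 34 of 310 with no count minimum (18 lower, 16 higher). The sign turned for SNHG16 (-0.011 by the transcript with the highest RPKM) and for SNHG15 (0.023 with only NR_ and NM_ transcripts, 0.031 without snoRNA), as their transcripts differ. Near 0 the sign also turned for SNHG25 (-0.028) and SNHG17 (-0.044) with totals that left out the 12 transcripts with most counts, and for SNHG7 (0.0058 with TMM, 0.016 by the transcript without snoRNA). Scaling moved every ratio by 0.014 with TMM and by -0.067 with those reduced totals.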
